A study of Mus musculus with 6 samples.

Results

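The genes described here encode eIF4F, the complex that loads the small ribosomal subunit onto capped mRNA, together with the paralogs of its subunits and the inhibitors that hold its cap-binding subunit. They are Eif4e, Eif4e2 and Eif4e3 (cap-binding proteins), Eif4ebp1 and Eif4ebp2 (4E-binding inhibitors), Eif4g1, Eif4g2 and Eif4g3 (scaffolds) and Eif4a1 and Eif4a2 (RNA helicases). They were taken by symbol from the deposited table of transcript levels, and all 10 were found among its 22186 genes. The table covers primary mouse adipose-derived stromal cells (ADSCs, fibroblast-like cells grown out of fat) of wild-type genotype. In 3 libraries the ADSCs had shared a culture with regulatory T cells (Treg, T cells that restrain immune responses) for 48 h, here called Treg co-culture. The 3 control libraries are of ADSCs with 0 h of co-culture, which does not tell how long the controls were themselves kept in culture. The series title names IFIT1, an interferon-induced blocker of translation, and translational suppression, so the comparison asks whether transcripts of the cap-binding machinery differed after Treg co-culture. The labels give neither the strain, age or sex of the mice nor the way in which the cells were kept together. No other cell type was tried as a partner, so effects of Treg and of any added cells cannot be told apart.

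Capped mRNA is recruited when eIF4E holds the cap and docks on the scaffold eIF4G, which also carries the helicase eIF4A that unwinds the start of the message. Unphosphorylated 4E-binding proteins occupy the surface of eIF4E that eIF4G needs, and the kinase mTORC1 phosphorylates them and so frees eIF4E. The activity of the complex is set largely by phosphorylation and protein binding, which transcript levels do not measure.

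Levels are in TPM, a share of all transcripts that corrects for gene length, so that different genes may be compared within a library. TPM keeps no sequencing depth, so no counting interval can be given. The labels do not say whether the libraries of a group came from separate cultures or animals, and the p-values therefore reflect the scatter of these libraries alone, which may be technical. All 10 adipose stromal markers of a list (among them Pdgfra, Thy1 and Cd44) averaged at least 1 TPM, with summed levels of 2762 to 2784 TPM after Treg co-culture and 2736 to 2791 TPM in controls. Its largest member was Itgb1, at 1108 to 1125 TPM after Treg co-culture and 1041 to 1086 TPM in controls. Other members differed in both directions, with Pdgfra at 135 to 143 TPM after Treg co-culture and 189 to 191 TPM in controls and Cd44 at 178 to 182 TPM after Treg co-culture and 117 to 124 TPM in controls. T cell RNA was near absent. Of 12 Treg markers, 7 (Cd3d, Cd3e, Cd3g, Cd4, Il2ra, Ctla4 and Cd2) were listed at 0 in all 6 libraries, and the list summed to 4.05 to 4.47 TPM after Treg co-culture and 3.38 to 4.24 TPM in controls. Treg co-culture library 1 stood apart by 6 heart and liver transcripts (Alb, Apoa1, Myl2, Myl3, Myh6 and Nppa), which summed to 92.4 TPM there and at most 1.10 TPM in any other library.

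Among the promoters of these genes, those of Eif4e, Eif4a1 and Eif4g1 held the letters CACGTG, the E-box that the growth-promoting transcription factor MYC binds and that is known from the human EIF4E promoter. RefSeq promoter windows (assembly GRCm38.p6, 300 bases from 250 before to 50 after a transcript start) were at hand for 7 of the 10 genes, and the 3 named were those with a match. Eif4e2, Eif4g3, Eif4ebp2 and Eif4a2 had none in their windows, and the promoters of Eif4e3, Eif4ebp1 and Eif4g2 were not analysed here. The sites are printed because the 3 genes that hold them encode core subunits of the complex. CACGTG reads the same on both strands, and each line gives 30 bases on the strand of the gene, 5′ to 3′, with the motif in capitals. Its first base lay 228 and 64 bases before the downstream of the annotated starts of Eif4e (chr3:138527028-138527057 and chr3:138527192-138527221, plus strand), 189 bases before that of Eif4a1 (chr11:69672595-69672624, minus strand), and 54 bases before and 15 bases after that of Eif4g1 (chr16:20672661-20672690 and chr16:20672730-20672759, plus strand).
Eif4e, far site: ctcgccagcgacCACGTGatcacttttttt
Eif4e, near site: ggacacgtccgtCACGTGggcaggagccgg
Eif4a1 site: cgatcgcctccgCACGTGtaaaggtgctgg
Eif4g1, upstream site: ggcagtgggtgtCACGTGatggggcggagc
Eif4g1, downstream site: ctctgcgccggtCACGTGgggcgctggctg
A match of letters says nothing of binding in these cells. Of all 32851 promoter windows, 7.15% held CACGTG. Counted by gene, as for the genes here, it stood in 11.8% of the 9870 tested genes with a window. Among tested genes with a window, it stood in 13.3% of the 1931 that were higher after Treg co-culture, 12.4% of the 1705 that were lower and 11.2% of the 6234 that passed no threshold.

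The core of the complex was higher after Treg co-culture. Eif4e, Eif4g1 and Eif4a1 rose by 1.18-fold to 1.22-fold in mean TPM, and so did Eif4ebp1, the inhibitor gene, at 1.19-fold. Eif4a2, the second helicase gene, fell to 0.901 of its control level. The remaining 5 genes (Eif4e2, Eif4e3, Eif4ebp2, Eif4g2 and Eif4g3) did not pass the test. Tests were made with limma on log2(TPM + 1), a scale that slightly understates fold changes, over the 12405 genes that averaged 1 TPM or more, and p-values were adjusted by Benjamini-Hochberg over all of them with a threshold of 0.05. All 10 genes passed that filter. The 4 higher and 1 lower make 5 of 10, against 37.8% of all genes tested (19.8% higher and 18.0% lower), so the share is not far from the background. Groups did not overlap for 6 of the 10 (5 higher and 1 lower), against 49.3% of all genes tested (25.3% higher and 24.0% lower). Their median log2 fold change was 0.058, against 0.0015 over all genes tested. The changes were also modest, since the largest of the 10 was 0.28 and the median size among all genes past the threshold was 0.31.

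**Figure D1:**
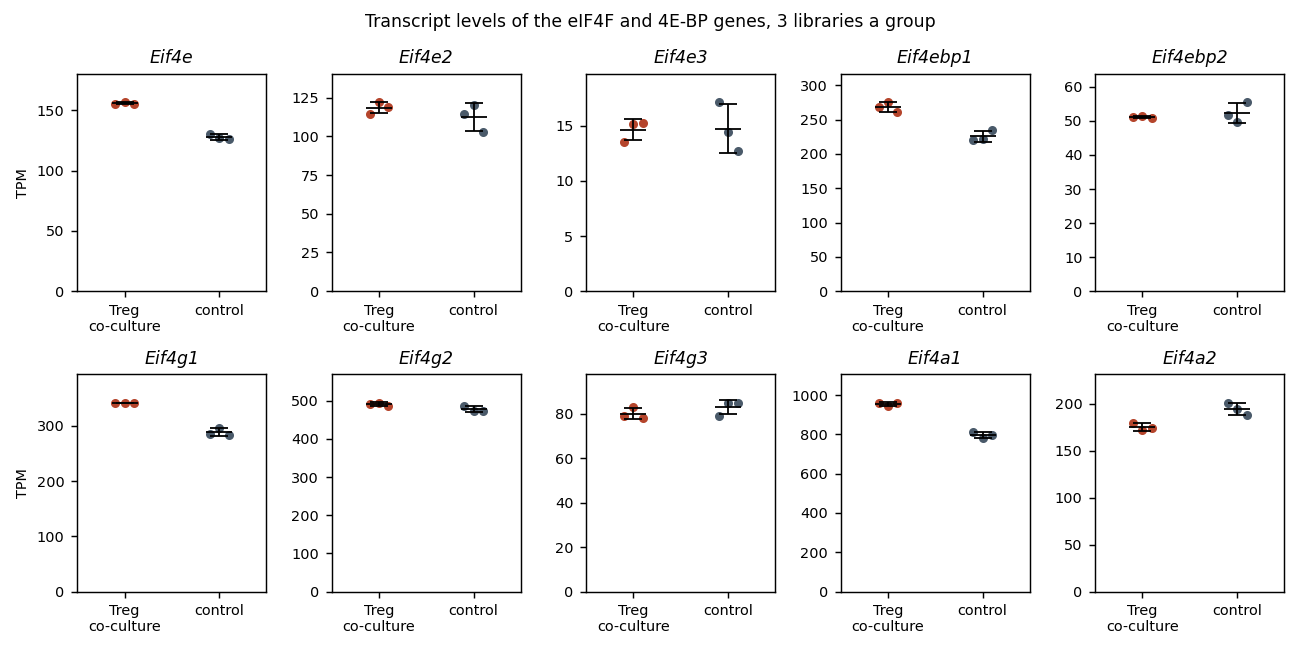
TPM of each of the 10 genes in every library, on axes that start at 0, with points for libraries, short lines for means and bars for the SD (n = 3 a group). The Treg co-culture points lie wholly above the control points for Eif4e, Eif4ebp1, Eif4g1, Eif4a1 and, narrowly, Eif4g2, and wholly below them for Eif4a2.

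The genes are described role by role, beginning with the cap-binding proteins. Eif4e, the canonical cap-binding subunit, stood at 155, 157 and 156 TPM in Treg co-culture libraries 1 to 3, against 131, 127 and 126 TPM in control libraries 1 to 3. The groups did not overlap, and the Treg co-culture libraries lay closer together than the controls. It rose by 0.28 on the log2 scale (SE 0.029, limma adjusted p = 4.15e-05), and within batches 1, 2 and 3, each of which holds a library of either group, the difference was 0.25, 0.30 and 0.30. Eif4e2 encodes 4EHP, a paralog that binds the cap but not eIF4G and that mostly represses the messages it holds. It had 115, 122 and 119 TPM after Treg co-culture and 115, 121 and 103 TPM in controls, with control library 3 the lowest and the groups overlapping. Its log2 fold change was 0.075 (95% interval -0.044 to 0.19, limma adjusted p = 0.303). Eif4e3, a cap-binding paralog with an atypical grip on the cap, was the lowest of all 10 genes at 13.5, 15.2 and 15.2 TPM after Treg co-culture and 17.1, 14.4 and 12.7 TPM in controls. Here control library 1 was the highest and control library 3 the lowest of the 6. The log2 fold change of Eif4e3 was -0.0010 with a 95% interval of -0.23 to 0.23 (limma adjusted p = 0.995), the widest interval of the 10.

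The inhibitors split by paralog. Eif4ebp1, which encodes 4E-BP1, had 268, 275 and 261 TPM after Treg co-culture and 221, 222 and 235 TPM in controls. All 3 Treg co-culture libraries were above the highest control, library 3. It rose by 0.24 on the log2 scale (SE 0.033, limma adjusted p = 0.000254), with differences of 0.28, 0.31 and 0.15 within batches 1 to 3. Eif4ebp2, which encodes 4E-BP2, best known as the 4E-BP of brain, stood much lower, at 51.0, 51.6 and 50.9 TPM after Treg co-culture and 51.8, 49.6 and 55.5 TPM in controls. The Treg co-culture values lay within the control range. Its log2 fold change was -0.029 (95% interval -0.14 to 0.079, limma adjusted p = 0.673).

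Of the scaffolds, Eif4g1 passed the test. This is the main scaffold, with sites for eIF4E, eIF4A, eIF3 and the poly(A)-binding protein. Its levels were 342, 341 and 340.3 TPM after Treg co-culture and 285, 296 and 284 TPM in controls, so the groups were clearly apart and the Treg co-culture libraries almost equal. Eif4g1 rose by 0.24 on the log2 scale (SE 0.025, limma adjusted p = 4.54e-05), and the differences within batches 1 to 3 were 0.26, 0.20 and 0.26. Eif4g2 encodes DAP5, a relative of eIF4G that lacks the eIF4E-binding site and serves initiation without eIF4E. It was the more abundant scaffold transcript, at 492, 495 and 486 TPM after Treg co-culture and 486, 472 and 474 TPM in controls. The groups were separated by less than 1 TPM, with Treg co-culture library 3 next to control library 1. Its log2 fold change of 0.041 missed the threshold (95% interval -0.0081 to 0.089, limma adjusted p = 0.174). Eif4g3, the eIF4E-binding paralog of Eif4g1, had 78.9, 83.0 and 78.4 TPM after Treg co-culture and 79.3, 84.8 and 85.1 TPM in controls. These overlapped, and the log2 fold change was -0.051 (95% interval -0.15 to 0.043, limma adjusted p = 0.374).

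The helicase pair moved in opposite directions. Eif4a1, the most abundant of the 10 and the form that predominates in growing cells, stood at 958, 945 and 961 TPM after Treg co-culture and 814, 781 and 796 TPM in controls. The lowest Treg co-culture library was well above the highest control. It rose by 0.26 on the log2 scale (SE 0.021, limma adjusted p = 7.21e-06), with 0.23, 0.28 and 0.27 within batches 1 to 3. Eif4a2, a closely similar helicase that has been linked to microRNA-mediated repression, had 180, 172 and 174 TPM after Treg co-culture and 201, 194 and 188 TPM in controls. Every Treg co-culture library was below every control. It fell by 0.15 on the log2 scale (SE 0.033, limma adjusted p = 0.00536), and the differences within batches 1 to 3 were -0.16, -0.18 and -0.11. The sources used here do not say how reads shared by these similar paralogs were assigned, which leaves their separate levels uncertain. In the GENCODE M21 annotation an exon of Eif4a2 also overlaps Rfc4 on the opposite strand, and whether counting used strand is not given. Rfc4, a replication factor subunit, had 19.2 ± 1.73 TPM after Treg co-culture and 14.8 ± 3.29 TPM in controls (SD, n = 3 each). The exons of Eif4e3 overlap the annotated read-through gene model Gm20696.

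**Figure D2:**
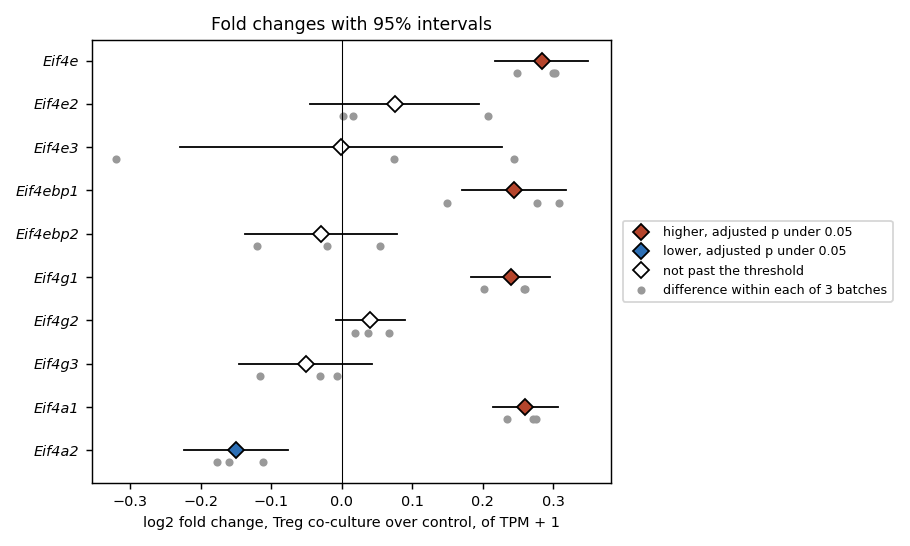
Log2 fold change of TPM + 1, Treg co-culture over control, for each of the 10 genes (diamonds) with limma's 95% interval (lines), and the difference within each of the 3 batches (grey points). Eif4e, Eif4ebp1, Eif4g1 and Eif4a1 lie at 0.24 to 0.28, Eif4a2 lies at -0.15, and the intervals of the other 5 genes include 0.

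The order of levels was the same in both groups. It ran from Eif4a1 through Eif4g2, Eif4g1, Eif4ebp1, Eif4a2, Eif4e, Eif4e2, Eif4g3 and Eif4ebp2 to Eif4e3, and in neither group did the ranges of neighbours in that order overlap. Most of the 10 were abundant: by mean TPM over the 6 libraries, Eif4a1 exceeded 98.8% of the genes tested, Eif4g2 97.8%, Eif4g1 96.4% and Eif4ebp1 95.2%, whereas Eif4e3 exceeded 36.9%. Summed over each role, helicase transcripts came to 1130 ± 11.1 TPM after Treg co-culture and 991 ± 21.0 TPM in controls, and scaffold transcripts to 912 ± 6.80 TPM after Treg co-culture and 849 ± 5.20 TPM in controls. Cap-binding transcripts summed to 289 ± 5.28 TPM after Treg co-culture and 255 ± 11.6 TPM in controls, and inhibitor transcripts to 319 ± 7.48 TPM after Treg co-culture and 278 ± 10.7 TPM in controls (SD, n = 3 each). Most of the difference in each sum lay in a single gene, namely Eif4a1, Eif4g1, Eif4e or Eif4ebp1, and Eif4a2 fell. The sums therefore do not show that a role rose as a class.

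Ratios of transcripts within a library do not depend on how TPM is scaled, and 10 of them were compared. Those among the core genes and Eif4ebp1 moved little, while each paralog ratio had lower values in all Treg co-culture libraries than in any control. Each paralog ratio, like Eif4ebp2 per Eif4e, divides a gene that was not called higher by a gene that was. The remaining ratios divide a gene called higher by another such gene. The pattern therefore follows from the fold changes above and is not a separate result. An exact two-sided permutation test over the 20 arrangements of 3 against 3 libraries cannot go below p = 0.1, so no ratio could reach a threshold of 0.05. Per Eif4e transcript there were 6.13 ± 0.0802 Eif4a1 transcripts after Treg co-culture and 6.23 ± 0.0786 in controls, and 2.19 ± 0.0118 Eif4g1 transcripts after Treg co-culture and 2.26 ± 0.0757 in controls (SD, n = 3 each, exact permutation p = 0.3 for both, 0.333 adjusted over the 10). The inhibitor Eif4ebp1 numbered 1.72 ± 0.0402 per Eif4e transcript after Treg co-culture and 1.77 ± 0.0884 in controls (exact permutation p = 0.5, also 0.5 adjusted). The log2 differences of these ratios were -0.025 (SE 0.015) for Eif4a1, -0.045 (SE 0.028) for Eif4g1 and -0.040 (SE 0.046) for Eif4ebp1, and the groups overlapped in all 3.

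The other 7 ratios had groups that did not overlap, each with an exact permutation p of 0.1, the smallest possible, and 0.143 adjusted over the 10. The widest shift was in the helicase pair. Eif4a2 per Eif4a1 stood at 0.188, 0.182 and 0.181 in Treg co-culture libraries 1 to 3, against 0.247, 0.249 and 0.236 in control libraries 1 to 3. That is a log2 difference of -0.41 (SE 0.029), and it was between -0.45 and -0.38 within each batch. For the inhibitors, Eif4ebp2 per Eif4ebp1 was 0.191 ± 0.0039 after Treg co-culture and 0.231 ± 0.00681 in controls, a log2 difference of -0.28 (SE 0.030). Among the scaffolds, Eif4g3 per Eif4g1 was 0.235 ± 0.00743 after Treg co-culture and 0.288 ± 0.011 in controls, and Eif4g2 per Eif4g1 was 1.44 ± 0.0107 after Treg co-culture and 1.65 ± 0.0565 in controls (SD, n = 3 each). Cap-binding paralogs showed a lower share with a wider spread. Eif4e2 per Eif4e was 0.761 ± 0.0207 after Treg co-culture and 0.881 ± 0.0674 in controls, and Eif4e3 per Eif4e was 0.094 ± 0.00602 after Treg co-culture and 0.115 ± 0.0153 in controls. The log2 difference of Eif4e3 per Eif4e was uneven, at -0.59, -0.23 and -0.041 within batches 1 to 3, and -0.29 overall against -0.19 without control library 1. The last of the 7, Eif4ebp2 per Eif4e, was 0.328 ± 0.00102 after Treg co-culture and 0.409 ± 0.0265 in controls.

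**Figure D3:**
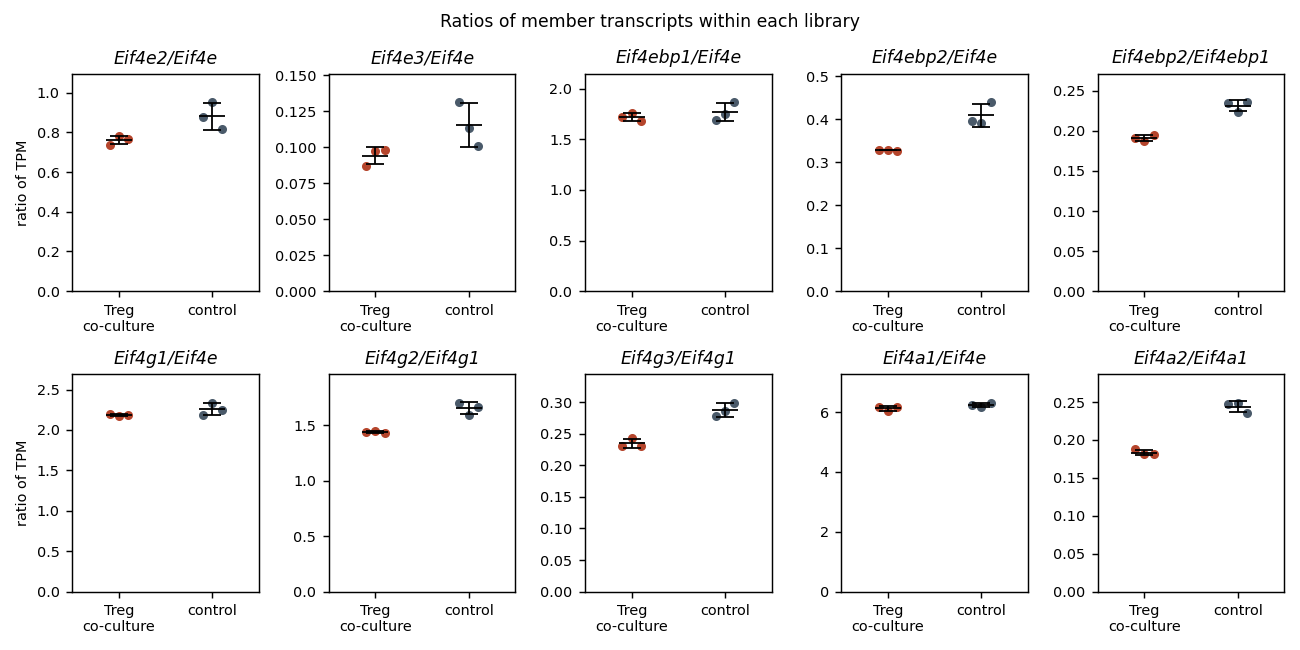
Ratio of the TPM of 2 genes within each library, for 10 pairs, with points for libraries, short lines for means and bars for the SD (n = 3 a group). The groups overlap for Eif4ebp1, Eif4g1 and Eif4a1 per Eif4e and are apart in the other 7 pairs, widest for Eif4a2 per Eif4a1 at 0.183 after Treg co-culture and 0.244 in controls.

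The genes whose profile over the 6 libraries was most like that of Eif4e were found by the root mean square difference of log2(TPM + 1) after each gene was centred on its own mean. Among 12044 named protein-coding genes the closest was Eif3b, a subunit of the eIF3 complex that bridges eIF4G and the ribosome, at 0.0087. Next came the lactate dehydrogenase gene Ldha (0.012), the histone chaperone subunit Ssrp1 (0.013), the chaperonin subunit Tcp1 (0.014) and the purine synthesis enzyme Atic (0.015). Of the other genes of the complex, Eif4a1 ranked 12, Eif4g1 ranked 104 and Eif4ebp1 ranked 300 in this list, and Eif4a2 ranked 7891. The measure rests on 6 libraries in 2 groups and mostly reflects the size of the group difference.

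Partners of the helicase and the scaffold come next. Of 8 genes for eIF4A cofactors and poly(A)-binding partners, 2 were higher and 2 lower, a share near that of all genes tested (19.8% higher and 18.0% lower), with a list median of 0.031. Pdcd4, a tumour suppressor that traps eIF4A and blocks its entry into eIF4F, had 34.5, 32.0 and 36.7 TPM after Treg co-culture and 46.3, 45.7 and 47.7 TPM in controls. Its groups were wide apart, and it fell by 0.43 on the log2 scale (SE 0.056, limma adjusted p = 0.000199). Eif4b, which stimulates the helicase, fell by 0.15 to 365 ± 3.06 TPM after Treg co-culture, against 404 ± 12.0 TPM in controls (SD, n = 3 each, limma adjusted p = 0.00164). The poly(A)-binding protein genes were the 2 that rose, Pabpc4 by 0.18 (limma adjusted p = 0.00183) and Pabpc1 by 0.060 (limma adjusted p = 0.0133). Pabpc1 had 1379 ± 2.41 TPM after Treg co-culture and 1323 ± 3.33 TPM in controls. Without Treg co-culture library 3 only 1 gene of this list was higher.

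The mTORC1 axis lies upstream of the complex. Of its 19 genes, 3 were higher and 2 lower, against 19.8% and 18.0% of all genes tested, with a median log2 fold change of 0.0078. Rps6kb1 encodes S6K1, the mTORC1 substrate that phosphorylates eIF4B and PDCD4. It stood at 57.8, 57.8 and 60.7 TPM after Treg co-culture and 73.9, 72.7 and 77.1 TPM in controls, with no overlap and a log2 fold change of -0.34 (SE 0.041, limma adjusted p = 0.000131). Rragc, a Rag GTPase that carries amino acid signals to mTORC1, fell by 0.20 (limma adjusted p = 0.00139). The kinase gene Akt2 rose by 0.18 (limma adjusted p = 0.00168), and Tbc1d7, a subunit of the TSC complex that restrains mTORC1, rose by 0.29 (limma adjusted p = 0.0138). The third higher gene, Akt1, rose by 0.081 (limma adjusted p = 0.0379) and is named after its value was seen. Mtor itself had a log2 fold change of 0.13 (SE 0.078, limma adjusted p = 0.233), also given after its value was seen. The higher count was unsteady. It was 2 with no filter, without the variance trend, without Treg co-culture library 1 or 3 and without control library 2 or 3. It was 1 without Treg co-culture library 2. Without control library 1 the higher count was 4 and the lower count 4.

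MNK kinases phosphorylate eIF4E while it is bound to eIF4G. Of 7 genes of the MNK and ERK axis, 0 were higher and 1 was lower in limma, against 19.8% and 18.0% of all genes tested, with a median of -0.037, and at an unadjusted p under 0.05 the counts were 0 and 2. Mknk1, the gene of MNK1, was that 1, at 21.8 ± 0.973 TPM after Treg co-culture and 24.8 ± 0.598 TPM in controls (SD, n = 3 each), a log2 fold change of -0.18 (SE 0.058, limma adjusted p = 0.033). The call did not hold with the replicate block, nor without Treg co-culture library 1 or 2 or control library 2 or 3, each of which left 0 genes lower. Mapk3 (-0.089) and Map2k2 (0.082), which encode kinases of the ERK cascade, had limma adjusted p-values of 0.0853 and 0.149.

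A further list holds other proteins that bind the cap or eIF4E. Of 14 listed, 13 were tested, 2 were higher and 0 lower in limma (3 and 0 at an unadjusted p under 0.05), against 19.8% and 18.0% of all genes tested, with a median of -0.011. Ncbp1, the large subunit of the nuclear cap-binding complex, had 66.4, 62.6 and 63.8 TPM after Treg co-culture and 54.8, 54.8 and 51.2 TPM in controls. It was higher in every Treg co-culture library than in any control, by 0.26 on the log2 scale (SE 0.045, limma adjusted p = 0.0013). Larp1, which binds the caps of messages for the translation machinery, rose by 0.12 (limma adjusted p = 0.0302). Eif4enif1, which encodes the eIF4E shuttling protein 4E-T, and Ncbp2 had log2 fold changes of 0.12 and 0.12 and missed the threshold (limma adjusted p = 0.0642 and 0.128). Only 1 gene of the list was higher without Treg co-culture library 2, without control library 1 and without control library 2.

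Among transcripts often described as especially dependent on eIF4E, 8 of 13 were higher and 0 lower after Treg co-culture in limma, against 19.8% higher and 18.0% lower over all genes tested, with a median log2 fold change of 0.22. At an unadjusted p under 0.05, 8 were higher and 2 lower. Ccnd1 (-0.13, limma adjusted p = 0.0884) and Mcl1 (-0.078, limma adjusted p = 0.0837) had the lowest fold changes of the list and are given after their values were seen. The list was chosen with earlier results of these data known, so its share cannot be read as an independent count. The values are transcript levels, and how far the messages were translated was not measured. Rrm2, a ribonucleotide reductase subunit, had 154, 155 and 153 TPM after Treg co-culture and 77.8, 70.7 and 73.6 TPM in controls, the widest change of the list (1.05, SE 0.039, limma adjusted p = 2.84e-08). Odc1, the entry enzyme of polyamine synthesis, rose by 0.44 to 229 ± 4.63 TPM after Treg co-culture, against 169 ± 1.49 TPM in controls (SD, n = 3 each, limma adjusted p = 1.33e-06). The growth factor gene Fgf2 rose by 0.42 (limma adjusted p = 7.35e-06). Without Treg co-culture library 2, 1 gene of the list was lower.

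Of 8 genes for factors known to control eIF4F or 4E-BP genes, 2 were higher and 3 lower, against 19.8% and 18.0% of all genes tested, with a median of -0.012. Myc is also on the list of eIF4E-dependent transcripts above and is counted in both. Myc, whose product is known to act on the human EIF4E gene through E-boxes, had 67.1, 64.8 and 74.3 TPM after Treg co-culture and 49.6, 53.1 and 49.5 TPM in controls. Every Treg co-culture library lay above every control, and Myc rose by 0.43 on the log2 scale (SE 0.056, limma adjusted p = 0.000196). Snai1, a repressor reported to act on the human 4E-BP1 gene, rose by 0.74 to 104 ± 5.97 TPM after Treg co-culture, against 62.2 ± 4.58 TPM in controls (SD, n = 3 each, limma adjusted p = 6.73e-06). FOXO drives the 4E-BP gene in Drosophila, and both mouse FOXO genes on this list, which does not hold the whole family, were lower. Foxo3 fell by 0.36 (limma adjusted p = 0.000691) and Foxo1 by 0.30 (limma adjusted p = 0.0111). The third lower gene, Mycn (-0.27, limma adjusted p = 0.0197), and Atf4 (0.078, SE 0.039, limma adjusted p = 0.142), the stress-induced activator of the Eif4ebp1 gene, are given after their values were seen. The part of these factors in the levels of the cap-binding genes was not tested.

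**Figure D4:**
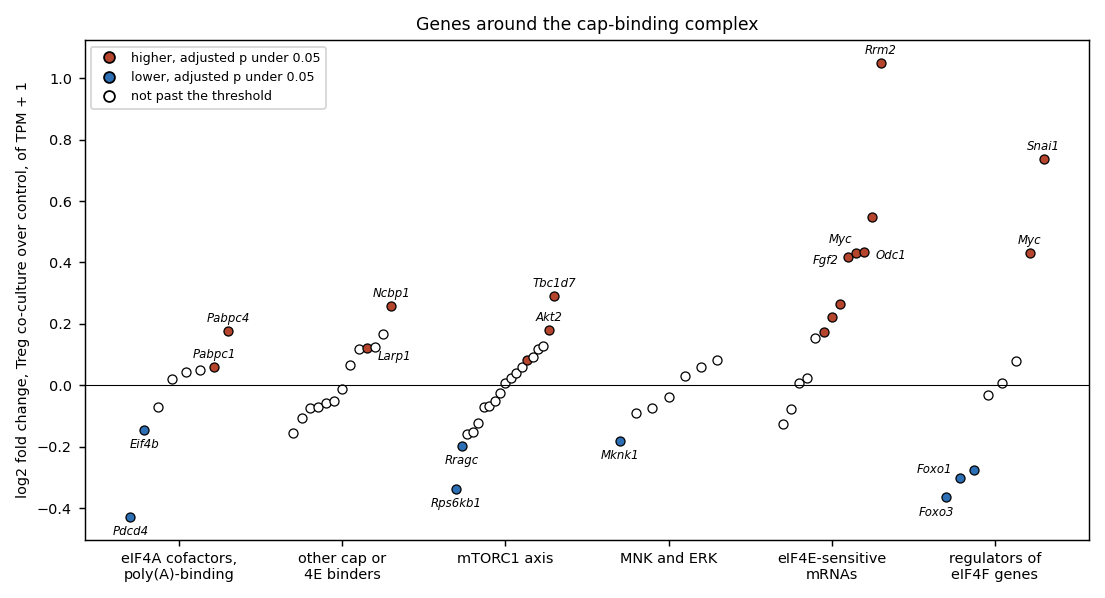
Log2 fold change of TPM + 1, Treg co-culture over control, for each tested gene of 6 lists around the cap-binding complex, ordered by value within a list, with filled points for limma adjusted p under 0.05. Of 8 eIF4A cofactors and poly(A)-binding partners, 2 are filled as higher and 2 as lower. Filled points number 2 of 13 among other cap or 4E binders, 5 of 19 in the mTORC1 axis and 1 of 7 in the MNK and ERK axis. They number 8 of 13 among eIF4E-sensitive mRNAs and 5 of 8 among regulators of eIF4F genes, against 37.8% of all genes tested. Myc is on both of these last lists and is counted in each.

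Summed levels of markers of other cell types and states also differed between the groups. The 8 markers of cycling cells (among them Mki67, Top2a and Pcna) summed to 698 to 722 TPM after Treg co-culture and 497 to 510 TPM in controls, with no marker at 0. The 9 skeletal muscle markers (among them Myod1, Myog and Acta1), 8 of which averaged at least 1 TPM, summed to 2867 to 2929 TPM after Treg co-culture and 1065 to 1095 TPM in controls. The sums of 8 macrophage markers were 62.5 to 73.9 TPM after Treg co-culture and 87.4 to 95.3 TPM in controls. Most of that gap lay in Lyz2, at 39.7 to 51.8 TPM after Treg co-culture and 62.4 to 70.5 TPM in controls, and Adgre1 was the only other macrophage marker whose groups did not overlap. The sums of 6 endothelial markers were 34.1 to 35.9 TPM after Treg co-culture and 38.1 to 40.4 TPM in controls, and the members ran in both directions. Kdr had 8.54 to 9.26 TPM after Treg co-culture and 6.99 to 7.29 TPM in controls, whereas Tek had 8.75 to 9.20 TPM after Treg co-culture and 11.1 to 13.0 TPM in controls. The part of these cell types in the differences of the cap-binding genes was not tested, and in bulk RNA fewer cells of a type and less RNA per cell cannot be told apart. Without Treg co-culture library 1, the library with heart and liver transcripts, again 4 of the 10 genes were higher and 1 lower.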

How the data were processed

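A single table of TPM was deposited by the authors, listing NCBI Gene numbers in rows and the 6 libraries in columns. TPM are by definition scaled to a total of 1000000 in each library, so depth is unknown. The submitters' processing notes name GRCm38, mm10 and GRCm39 with no role, while aligner, counter and annotation are not given there. Of 22186 rows, 21992 matched a symbol in the RefSeq gene table of GRCm38.p6, taken for names alone. The promoter windows come from RefSeq on that build.

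The test was limma 3.58.1 in R 4.3.3, with eBayes and trend = TRUE, on log2(TPM + 1), without a block, over the 12405 genes averaging 1 TPM or more. For single genes, SE and 95% intervals are limma's moderated values. The SE of a ratio was taken from the plain pooled SD of its log2 values, without limma or moderation. On simulated data of that size the step recovered 99 of 100 genes changed by 1 and 51 of 100 changed by 0.3 on the log2 scale, with 5 false calls. Changes were set only in the more abundant genes, and in far fewer genes than passed the threshold in the real data. These rates therefore do not carry over to the real comparison. The labels give libraries of 1 number a shared batch, so they were treated as pairs in an alternative fit. Within a number, departures from the group means had correlations of 0.0115, -0.0146 and 0.00402. Between different numbers they ran from -0.061 to 0.065, so libraries that shared a number were no more alike by this measure. At most 129 genes had equal values above 0 in any pair of libraries, so no library was a copy of another.

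The members, lists and ratios were chosen with earlier results of these data known. Named from each list were up to 4 tested genes with the lowest adjusted p. A gene that this rule would name is not reported here. Python 3.11.15, pandas 2.3.3, scipy 1.17.1 and matplotlib 3.10.9 were also used. Other settings tried were a pseudocount of 0.1, median-of-ratios scaling, no filter, a filter of 5 TPM, rescaling without mitochondrial and ribosomal protein genes, no variance trend, the replicate block and each library left out.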

Additional observations from a re-analysis of the deposited data

How the results depend on the processing

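Under all 13 alternatives, 4 of the 10 genes were higher and 1 lower, and the 5 named calls kept their side of the threshold, with limma adjusted p-values up to 0.0437 (Eif4a2, in the fit without the variance trend). With the replicate block the same counts of 4 and 1 were found, and over all genes 2369 were higher and 2123 lower, against 2454 and 2234 without it. Among the counts of the 10 genes and the 6 lists, the block changed 1, that of the MNK and ERK axis. With a library left out, between 2055 and 2245 genes were higher and between 1840 and 1973 lower. With a library left out, Eif4e3 ran from -0.096 to 0.11, Eif4ebp2 from -0.065 to 0.013, Eif4e2 from 0.012 (without control library 3) to 0.13 and Eif4g3 from -0.084 to -0.034. Eif4e3 changed sign without Treg co-culture library 1 (0.052) and without control library 1 (0.11), and Eif4ebp2 without control library 3 (0.013), none of them past the threshold, and the cause was not tested. The log2 difference of Eif4ebp1 per Eif4e was 0.028 in batch 1 and 0.0050 in batch 2, and that of Eif4g1 per Eif4e was 0.0095 in batch 1, against small negative means. Of the lists, the higher count was 1 for eIF4A cofactors and 1 for cap or 4E binders without the variance trend, and the lower count for the MNK and ERK axis was 0 with the replicate block. For the mTORC1 axis the higher count was 2 with no filter and also without the variance trend. With a library left out, higher counts ran from 1 to 2 for eIF4A cofactors, from 1 to 2 for cap or 4E binders and from 1 to 4 for the mTORC1 axis. Lower counts ran from 2 to 4 for the mTORC1 axis, from 0 to 1 for the MNK and ERK axis and from 0 to 1 for eIF4E-sensitive mRNAs. No scaling moved the median of all genes by more than 0.1. Depth is unknown, so the precision of the lowest gene, Eif4e3, cannot be set against its read count.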
